A study of Mus musculus with 36 samples.

Results

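GABA-A receptors are the chloride channels through which GABA, the main inhibitory transmitter of the adult brain, acts fastest. Each channel is a ring of several subunits drawn from a large gene family, and the alpha, beta, gamma and delta members that take part decide where the channel sits, how strongly GABA opens it and which drugs bind it. In hippocampal neurons, channels with the products of Gabra2 and Gabra3 sit mostly at synapses, while those with Gabra4 and Gabrd (dentate granule cells, thalamus) or Gabra5 (pyramidal cells) are known for the tonic current outside synapses. The 7 genes described here are 4 alpha subunit genes (Gabra2, Gabra3, Gabra4 and Gabra5), 2 beta subunit genes (Gabrb1 and Gabrb2) and the delta subunit gene Gabrd. They were taken by symbol from a table of 36172 gene entries, which also holds 12 other GABA-A subunit genes. All 7 passed the filter on low counts in every comparison.

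Hippocampal RNA came from Cx3cr1-cre NuTRAP mice. In these, tamoxifen activates a cre recombinase driven by the promoter of the microglial gene Cx3cr1 and thereby a fluorescent tag on ribosomes. All animals carried these alleles and all were induced, so that there is no uninduced group among the libraries used. Inputs (RNA of the whole tissue, taken before the pulldown step) came from 10 young early-induced animals of 6 months (5 females, 5 males), 12 old early-induced animals of 22 months (7 females, 5 males) and 7 old late-induced animals of 22 months (5 females, 2 males). The 7 TRAP libraries (translating ribosome affinity purification, RNA pulled down with the tagged ribosomes) were made from the 7 old late-induced animals that also gave the inputs. The study asked whether the age at induction matters for the pulldown and for age-related changes. For the subunit genes the inputs give the level in the tissue, and the TRAP libraries give how much of their RNA is left after a microglial pulldown. Which cells this RNA came from was not measured.

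Library totals ran from 12.9 to 20.4 M estimated counts. Levels are CPM, counts scaled to the library total with TMM factors over the 36 libraries. The libraries were checked against neuron and microglia markers, which do not tell the hippocampus from other brain regions. Of 12 neuron markers 11 were detected, with a summed level of 12407 to 15086 CPM in the inputs, and Map2 was listed at 0 in all libraries. In TRAP the 10 microglia markers summed to 10891 to 17472 CPM, against 597 to 885 CPM in the inputs of the same animals, and the neuron markers still summed to 10444 to 12779 CPM. Old early-induced inputs 2 and 10 and young input 6 (replicate numbers) stood apart in 10 thalamus markers. These summed to 411.3, 253.9 and 221.4 CPM in those 3 libraries and to 93.6 to 205.3 CPM in the other inputs. All 10 thalamus genes were highest in replicate 2 or 10 among the old early-induced inputs, and 9 of 10 were highest in replicate 6 among the young inputs. In bulk tissue, fewer cells of a type and less RNA per cell cannot be told apart.

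The alpha subunit genes have unlike promoters, shown here for the 3 that differ most in the results that follow: Gabra2 in its spread between animals, Gabra3 in its loss in TRAP and Gabra5 in the old late-induced inputs. The sequences are the 250 bases before the transcription start in RefSeq (GRCm38.p6, the same assembly as mm10), 5′ to 3′, all on the minus strand, with every CG dinucleotide in capitals. RefSeq entries were found for 6 of the 7 genes. Gabra2 lies at chr5:71095850-71096099, Gabra3 at chrX:72656808-72657057 (the first of 2 entries) and Gabra5 at chr7:57510060-57510309.
Gabra2: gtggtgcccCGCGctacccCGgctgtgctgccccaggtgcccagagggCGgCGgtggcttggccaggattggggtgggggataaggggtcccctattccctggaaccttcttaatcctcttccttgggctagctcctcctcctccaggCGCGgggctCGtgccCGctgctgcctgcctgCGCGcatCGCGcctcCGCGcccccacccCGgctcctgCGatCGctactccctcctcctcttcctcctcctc
Gabra3: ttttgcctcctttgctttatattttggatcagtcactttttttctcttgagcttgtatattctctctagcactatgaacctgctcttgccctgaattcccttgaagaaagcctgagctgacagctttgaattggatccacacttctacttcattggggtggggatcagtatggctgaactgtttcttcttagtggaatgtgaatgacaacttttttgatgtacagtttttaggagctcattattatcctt
Gabra5: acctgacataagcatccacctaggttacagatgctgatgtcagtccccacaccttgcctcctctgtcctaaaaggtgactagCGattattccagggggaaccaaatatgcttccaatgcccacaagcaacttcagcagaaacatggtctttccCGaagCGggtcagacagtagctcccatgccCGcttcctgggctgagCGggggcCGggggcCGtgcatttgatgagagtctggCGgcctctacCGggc
The Gabra2 promoter holds 18 CG, a number reached by 21.7% of 32841 such windows of all genes. The Gabra3 promoter holds 0 CG, as do 7.9% of the windows, and the other 92.1% hold at least 1. The Gabra5 promoter holds 9 CG, against a median of 6. No binding or methylation was measured here, so the letters describe the genes only.

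Per the deposited table, whose coordinates match the mouse assembly mm10 named in the submitters' processing notes, Gabra2 spans chr5:70961057-71095849, Gabra4 chr5:71569734-71658308 and Gabrb1 chr5:71700016-72137244. Gabra3 spans chrX:72432676-72656246, Gabra5 chr7:57407669-57510009, Gabrb2 chr11:42419757-42632591 and Gabrd chr4:155384979-155398069. Gabrb1 and Gabrb2 lie on the plus strand and the other 5 on the minus strand. The values are per gene entry, and which exons or reads they cover is not given.

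Gabra5, the subunit gene of tonic current in pyramidal cells, was the most abundant of the 7 per length of exon. In the young inputs it stood at 61.1 ± 2.78 CPM per kb of annotated exon within the deposited gene (SD, n = 10). Gabrb2, a beta subunit gene, was next at 33.3 ± 2.12 CPM per kb, then Gabra3 at 18.1 ± 1.21, Gabra4 at 15.2 ± 0.586 and Gabra2 at 15 ± 3.11 CPM per kb. The young ranges of Gabra4 and Gabra2 overlapped, and those of the first 3 genes did not overlap with the next in the order. Gabra3 (16.4 to 19.8 CPM per kb) did overlap with Gabra2 (9.54 to 18.3 CPM per kb). Gabrb1 had 9.32 ± 1.11 and Gabrd 8.41 ± 0.674 CPM per kb, with overlapping ranges. The length matters for Gabrb1: the deposited gene spans less of chromosome 5 (71700016 to 72137244) than the GENCODE M21 gene (71658113 to 72149037), and over all 13.84 kb of its annotated exon it stood at 1.25 CPM per kb. For Gabra2 the same step lowered the level to 8.22 CPM per kb, below Gabrd. In the old early-induced and old late-induced inputs Gabra5, Gabrb2 and Gabra3 led in the same order. In TRAP Gabra5 and Gabrb2 still led, at 42.2 and 24.1 CPM per kb, and Gabra3 stood at 10.2 CPM per kb, behind Gabra2 and Gabra4 with overlapping ranges. The place of Gabra2 there also depended on the length: over all annotated exon it stood at 7.04 CPM per kb in TRAP, below Gabra3 at 9.66 and Gabrd at 7.83.

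**Figure D1:**
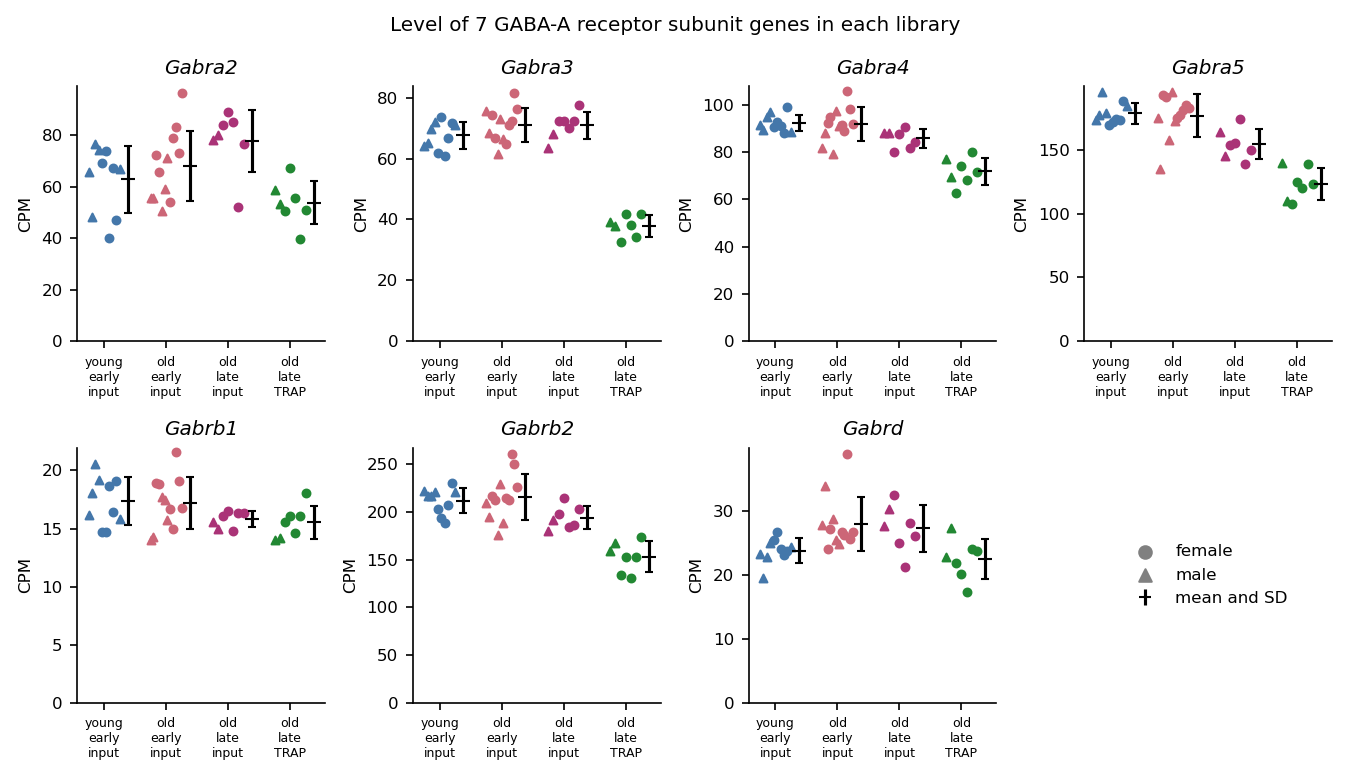
Level of each subunit gene (vertical axes, CPM, from 0) in each library of the 4 groups; circles are females, triangles males, and the black bar is the mean with its SD. Gabra3 drops in TRAP with no overlap with any input (at most 41.9 against at least 61.0 CPM), and Gabra2 is widely spread within every group (39.9 to 76.5 CPM in the young inputs).

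The first comparison asked what changed with age in early-induced animals. Gabrd, the delta subunit gene of extrasynaptic receptors, was the only one of the 7 to pass the test, and it was higher with age. The young inputs ran from 19.6 to 26.7 CPM (median 23.9) and the old early-induced ones from 24.1 to 38.9 CPM (median 26.7). All 12 old inputs lay above the young median, 6 lay above the highest young input, and the groups overlapped. The mean was 23.8 ± 1.91 CPM (SD, n = 10) in the young and 28 ± 4.26 CPM (SD, n = 12) in the old inputs. The log2 fold change was 0.25 ± 0.07 (SE; adjusted p = 0.0155, edgeR quasi-likelihood test with Benjamini-Hochberg adjustment over 15106 genes). Calls made up 25.5% of the genes tested in this comparison, 13.1% higher and 12.4% lower, so 1 of 7 is no larger a share than that of all genes.

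The 2 highest old Gabrd levels, 38.9 CPM in replicate 10 and 34 CPM in replicate 2, belonged to the 2 old inputs high in thalamus markers, and the highest young level, 26.7 CPM, to the young input high in them. The input next in these markers, old late-induced replicate 5 (205.3 CPM of markers, the others of its group 112.5 to 148.9 CPM), had the lowest Gabrd of its group, 21.3 CPM. Its mean over the markers was 3.73 log2 CPM, under the cut of 4 above which inputs were left out. Without the 3 libraries highest in the markers, an alternative chosen after seeing the data, Gabrd averaged 23.5 ± 1.71 CPM (SD, n = 9) in the young and 26.4 ± 1.41 CPM (SD, n = 10) in the old inputs. The log2 fold change was then 0.18 ± 0.06 (SE; adjusted p = 0.035, edgeR). The thalamus markers themselves did not pass the test (0 of 10 with edgeR, 1 at an unadjusted p under 0.05, median log2 fold change 0.33). The part of thalamus tissue in the Gabrd difference was not tested. With females alone the Gabrd difference was 0.18 with an adjusted p of 0.323 (edgeR).

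**Figure D2:**
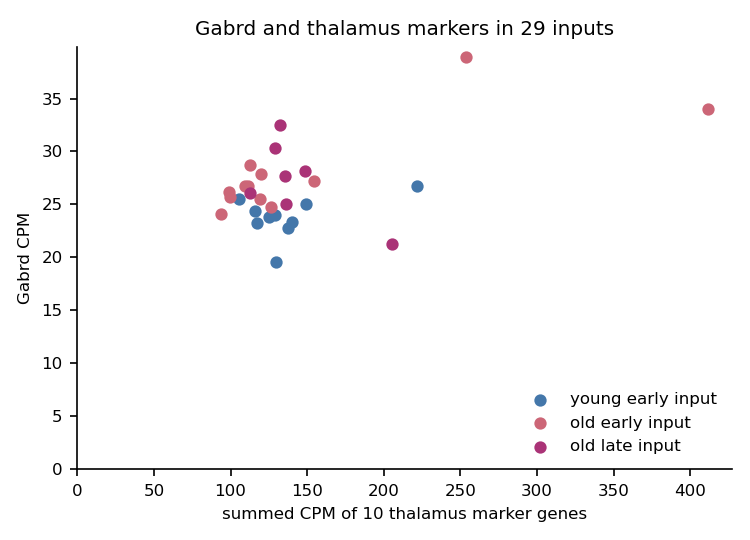
Gabrd level (vertical axis, CPM) against the summed CPM of 10 thalamus marker genes (horizontal axis) in the 29 inputs, coloured by group. The inputs at 411.3 and 253.9 CPM of thalamus markers have Gabrd at 34 and 38.9 CPM, and the young input at 221.4 CPM has Gabrd at 26.7 CPM, while the old late-induced input at 205.3 CPM has Gabrd at 21.3 CPM.

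The other 6 subunit genes did not pass the test between old and young early-induced inputs, and the 95% intervals bound what they could have done. For Gabra4, Gabra5, Gabrb1 and Gabrb2 the log2 fold changes lay between -0.01 and 0.03, and the widest of these intervals, for Gabrb1, ran from -0.15 to 0.12. Gabra3 differed by 0.07 (-0.01 to 0.16) and Gabra2 by 0.11 (-0.11 to 0.33). The median over the 7 genes was 0.03, beside 0.01 over all genes tested.

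The second comparison set old late-induced against young inputs, which also differ in the age at induction. Gabra5 was the only one of the 7 called, and it was lower. The young inputs ran from 169.5 to 194.9 CPM (median 175.7) and the old late-induced ones from 138.5 to 173.9 CPM (median 153.5). Of the 7 old inputs 6 lay below the lowest young input, and replicate 5 overlapped with the young range. The mean fell from 178.6 ± 8.14 CPM (SD, n = 10) to 154.3 ± 11.8 CPM (SD, n = 7). The log2 fold change was -0.20 ± 0.05 (SE; adjusted p = 0.0048, edgeR over 15106 genes). In this comparison 34.5% of the genes were called, 17.6% higher and 16.8% lower, so 1 of 7 is again no larger a share than that of all genes. Dentate gyrus and CA3 markers were lower in the same comparison (5 of 9 and 2 of 5 genes called lower, 0 higher, medians -0.35 and -0.31). In early-induced ageing, where Gabra5 was at -0.01, they also included called genes, 4 of 9 and 3 of 5 lower and 0 higher (medians -0.12 and -0.20). Of the CA1 markers 1 was called higher and 2 lower of 7 in the late-induced comparison (median -0.02). Microglia and oligodendrocyte markers rose in both: 10 of 10 microglia markers in each (medians 0.67 in old late-induced and 0.47 in early-induced ageing), and 8 and 7 of 8 oligodendrocyte markers (medians 0.50 and 0.34). Of 10 astrocyte markers 5 and 4 were called higher and 0 lower (medians 0.12 and 0.07). Of 5 oligodendrocyte precursor markers 2 were called higher and 2 lower in each comparison. The part of these cells in the Gabra5 difference was not tested. An antisense miscRNA entry, Gm9962, overlaps Gabra5 with a mean of 31.8 counts, beside at least 1380 counts for Gabra5 in any library, and reads shared between them were not tested.

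Gabrd and Gabra2 sat just outside the threshold in this comparison, and other settings brought them inside. Gabrd was at 27.3 ± 3.64 CPM (SD, n = 7) in the old late-induced inputs, 0.22 above the young on the log2 scale (adjusted p = 0.0505, edgeR). It was called without late-induced replicate 4, 5 or 7 or young replicate 5 or 6. Over all libraries left out in turn its adjusted p ran from 0.0176 to 0.147 (edgeR). It was at 0.24 with an adjusted p of 0.00771 without young replicate 6 and the 2 old early-induced inputs high in thalamus markers. Gabra2 was at 77.7 ± 12.1 CPM, 0.31 above the young (adjusted p = 0.0695, edgeR), and 6 of 7 old late-induced inputs lay above the highest young one. It was called without late-induced replicate 6 (0.37, adjusted p = 0.0255) or without young replicate 3 (0.34, adjusted p = 0.0457). Over all libraries left out in turn the adjusted p of Gabra2 ran from 0.0255 to 0.144 (edgeR). Gabrb2, at 194.2 ± 12.1 CPM (SD, n = 7) against 212.1 ± 13.5 CPM (SD, n = 10), differed by -0.12 (adjusted p = 0.0953) and was called without young replicate 7 (-0.15, adjusted p = 0.042, edgeR). It was also called without the 3 inputs high in thalamus markers (-0.14, adjusted p = 0.042). Its adjusted p ran from 0.042 to 0.171 over all libraries left out in turn (edgeR). Gabra4 and Gabrb1 differed by -0.09 and -0.13 and Gabra3 by 0.08, none of them called. The median of the 7 was -0.09, beside 0.02 over all genes.

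**Figure D3:**
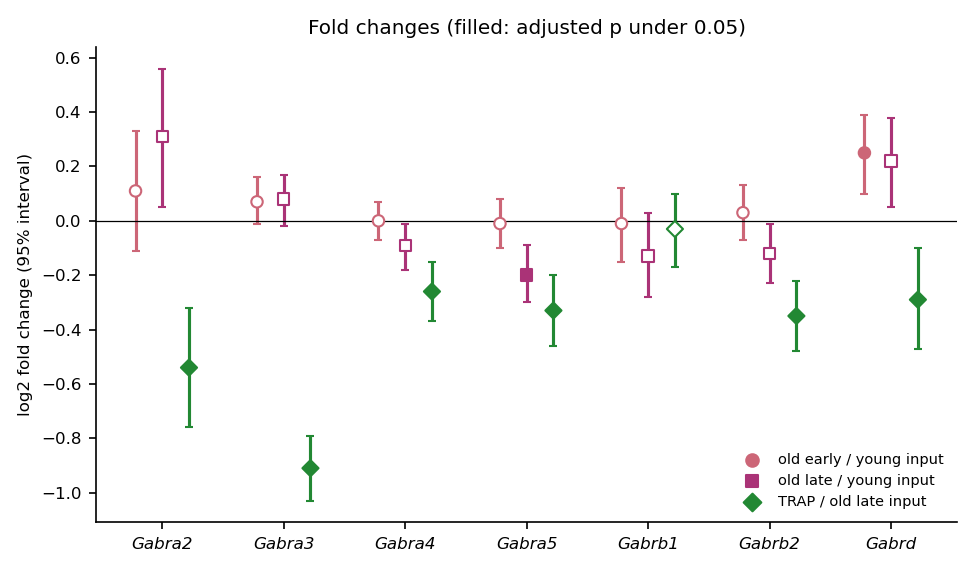
Log2 fold change (vertical axis) with 95% interval of each subunit gene in 3 comparisons, circles for old early-induced against young inputs, squares for old late-induced against young inputs and diamonds for TRAP against input; filled symbols passed an adjusted p of 0.05. Gabrd in the first, Gabra5 in the second and all but Gabrb1 in the third are filled, and the deepest point is Gabra3 in TRAP at -0.91.

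Between the old groups, which differ in the age at induction, 0 of the 7 subunit genes were called, against 0.0265% of all genes (4 of 15106). At an unadjusted p under 0.05, 3 of the 7 (Gabra5, Gabrb2 and Gabra4) and 1731 of all genes passed, and DESeq2 called 55 genes and 0 of the 7. Gabra5 came closest, with 176.8 ± 16.7 CPM (SD, n = 12) in the early-induced and 154.3 ± 11.8 CPM (SD, n = 7) in the late-induced inputs, a log2 difference of -0.19 ± 0.05 (SE; adjusted p = 0.164, edgeR). Its lowest early-induced value, 135.3 CPM, was in replicate 2, the library highest in thalamus markers. Without early-induced replicate 2 the difference was -0.22 (adjusted p = 0.0206), and without replicate 5 it was -0.20 (adjusted p = 0.045). Only these 2 of 19 left-out runs called it, and over all of them its adjusted p ran from 0.0206 to 0.32 (edgeR). Without both early-induced inputs high in thalamus markers and young replicate 6 it was -0.22 (adjusted p = 0.0149), and with females alone -0.24 (adjusted p = 0.0159). In these 4 settings the calls over all genes also rose, from 4 to 98, 162, 160 and 182 in the order given. The 2 age comparisons and this one share groups, so their values for Gabra5 (-0.01, -0.20 and -0.19) are not independent.

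Between males and females, over all 29 inputs, edgeR called 0 of the 7 genes, and so did DESeq2, and 0 had an unadjusted p under 0.05. That stands against 0.172% of all genes (0.053% higher and 0.119% lower in males), with log2 differences of males from females between -0.08 and 0.00. The interaction of age and sex in the early-induced inputs was largest for Gabra2. Its level averaged 59.4 ± 15 CPM in young females (SD, n = 5) and 74.8 ± 13.3 CPM in old early-induced females (SD, n = 7). In males it averaged 66.3 ± 11.1 CPM (SD, n = 5) and 58.4 ± 7.71 CPM (SD, n = 5). The interaction was -0.50 ± 0.21 on the log2 scale (SE; adjusted p = 0.268, edgeR), and for Gabrb2 it was -0.28 ± 0.09 (adjusted p = 0.222). At an unadjusted p under 0.05, 4 of the 7 passed (Gabra2, Gabra5, Gabrb1 and Gabrb2), and each of these 4 interactions was negative. Of all 14953 genes tested edgeR called 0 (0%), with 2301 at an unadjusted p under 0.05. DESeq2 called 13, none of them among the 7. Other lists also held genes at an unadjusted p under 0.05 (edgeR). These were 5 of 11 neuron markers, 7 of 14 genes that anchor or traffic GABA-A receptors and 2 of 6 other GABA-A subunit genes. Of 8 oligodendrocyte markers 0 were.

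Gabra2, a subunit gene of synaptic receptors, varied more between animals of the same group than most genes of its level. Its SD within groups was 0.295 on the log2 scale over the 29 inputs, and 98.6% of the 2309 genes within 0.5 log2 CPM of it had a smaller one (median 0.105). This was singled out after the values were seen. The young inputs ran from 39.9 to 76.5 CPM, the old early-induced from 50.7 to 96.2 CPM and the old late-induced from 52.0 to 88.8 CPM. In old late-induced replicate 6, the lowest in its group, the TRAP library was the lowest of the 7 too (39.8 CPM, the next 50.6 CPM), and replicate 4 was highest in both (88.8 and 67.3 CPM). The other 6 subunit genes had SDs of 0.086 to 0.175, with 33.1% to 80.6% of genes of like level below them.

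**Figure D4:**
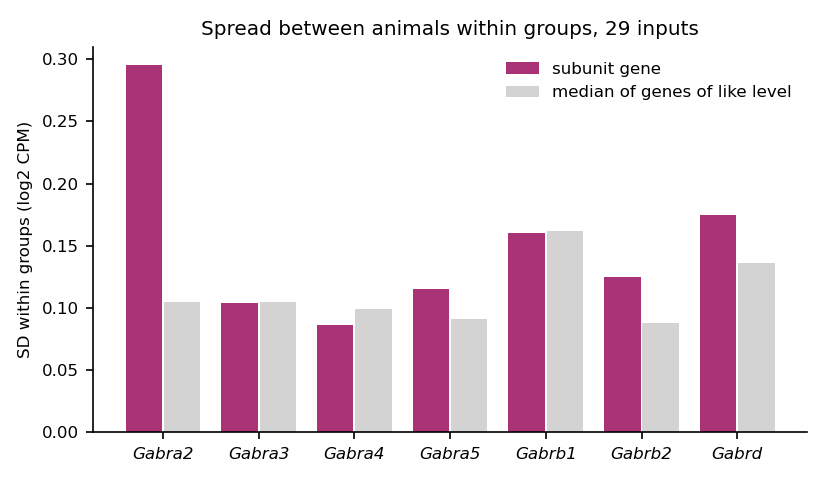
SD within groups (vertical axis, log2 CPM) of each subunit gene over the 29 inputs, with the median SD of genes within 0.5 log2 CPM of it in grey. Gabra2 reaches 0.295 against 0.105 for genes of like level, and the other 6 genes lie between 0.086 and 0.175.

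Deviations from the group means were shared by some subunit genes and not by others (Pearson's r over the 29 inputs, a description, since the libraries share depth and composition). Gabrb2 went with Gabra4 (0.63) and Gabra3 (0.62), Gabra4 went with Gabra5 and Gabrb1 (0.52 each), and Gabrd went against Gabra5 (-0.49). Gabra2 reached at most 0.39, with Gabrb2, although it lies in a cluster with Gabra4 and Gabrb1 on chromosome 5. Among 13053 genes, those most like each subunit gene by the same measure included Prkca (0.87), Nr3c2 (0.86) and Epha4 (0.85) for Gabra5, and Ttbk2 (0.87) and Kif5c (0.86) for Gabrb2. For Gabra3 they were Sel1l3 (0.78), Reps2 (0.76) and Kif3c (0.76), for Gabra4 Zfp148 (0.76), Ubl3 (0.72) and Klhl24 (0.71), and for Gabrb1 Plxna4 (0.72), Slc1a2 (0.70) and Txndc16 (0.69). For Gabra2 they were 5730455P16Rik (0.75), Lrrn3 (0.70) and Hspa13 (0.66). For Gabrd they were Ramp3 (0.77), Vamp1 (0.75) and Scn4b (0.75), and Ramp3 is itself 1 of the 10 thalamus markers used above.

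The last comparison asked how much of each subunit RNA was left in TRAP of the old late-induced animals. Of the 7 genes 6 fell and none rose, with Gabra3 the most depleted and Gabrb1 not called. Gabra3 ran from 63.5 to 77.7 CPM in the inputs (median 72.2) and from 32.5 to 41.9 CPM in TRAP (median 38.1), without overlap. Gabrb2 did not overlap either, at 180.1 to 214.4 CPM in the inputs and 130.4 to 174.3 CPM in TRAP. The ranges of the other subunit genes overlapped, and the share of all genes without overlap is not given here. The libraries were fitted with sex and without the animal, so the SEs and p-values leave out the pairing. A fit with the animal in place of sex changed no call among the subunit genes. The log2 fold change was -0.91 ± 0.06 for Gabra3 (SE; adjusted p = 1.67e-09, edgeR over 15026 genes), -0.54 ± 0.11 for Gabra2, -0.35 ± 0.07 for Gabrb2 and -0.33 ± 0.07 for Gabra5. It was -0.29 ± 0.09 for Gabrd (adjusted p = 0.016) and -0.26 ± 0.06 for Gabra4. Gabrb1 differed by -0.03 (95% interval -0.17 to 0.10), with 15.8 ± 0.684 CPM in the inputs and 15.5 ± 1.42 CPM in TRAP (SD, n = 7). In this comparison 58.4% of all genes were called, 30.1% higher and 28.3% lower, so 6 of 7 lower is above the share of all genes. The median of the 7 was -0.33 beside -0.02 over all genes. Markers of neurons and astrocytes fell too. Of 11 neuron markers 8 were called lower and 0 higher (median -0.27), and of 10 astrocyte markers 9 lower and 0 higher (median -0.46). All 10 microglia and all 8 endothelial markers were called higher. Without replicate 3 Gabrd was at -0.23 (adjusted p = 0.0547, edgeR).

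A share left in TRAP is relative to all other RNA in the library. The 10 microglia markers were 18.6-fold higher in TRAP than in the input of the same animal. Upper-quartile scaling moved the median of all genes to -0.18 and library size alone to -0.13, and the share of calls that were higher from 51.6% to 33.6% and 38.4%. All 7 directions held under these scalings, and Gabrb1 was called at -0.18 with upper-quartile scaling (adjusted p = 0.0272, edgeR). In females alone the Gabrb1 value was 0.01.

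Within animals the share left was set against that of 11 neuron markers, which does not depend on the scaling. The neuron markers, averaged over the list in each animal, stood at 84.9% of the input in TRAP, from 73.3% to 94.3% over the 7 animals. The values below are set against this average, and the spread between the 11 markers is not part of that range. Gabra3 stood at 53.4% (geometric mean; 44.9% to 61.6%), below the neuron markers in all 7 animals by 0.67 ± 0.16 on the log2 scale (SD, n = 7; exact two-sided sign-flip p = 0.0156, the smallest that 7 animals allow). Gabra2 stood at 69.3% (60.2% to 76.6%), below them in all 7 animals by 0.29 ± 0.12 (SD; exact p = 0.0156). Gabrb2 stood at 78.6%, below them in 6 of 7 animals by 0.11 ± 0.07 (SD; exact p = 0.0312). Gabrb1 stood at 98.0%, above them in 6 of 7 animals by 0.21 ± 0.18 (SD; exact p = 0.0469). Gabra5, Gabrd and Gabra4 stood at 79.8%, 82.3% and 83.6%, within 0.09 of the neuron markers (exact p from 0.141 to 0.719). These are 7 tests with unadjusted p. With any 1 animal left out the smallest possible p is 0.0312, and Gabra2 and Gabra3 were at it each time, while Gabrb1 passed only without replicate 1 and Gabrb2 only without replicate 7. Gabra5 passed without replicate 6 (exact p = 0.0312).

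**Figure D5:**
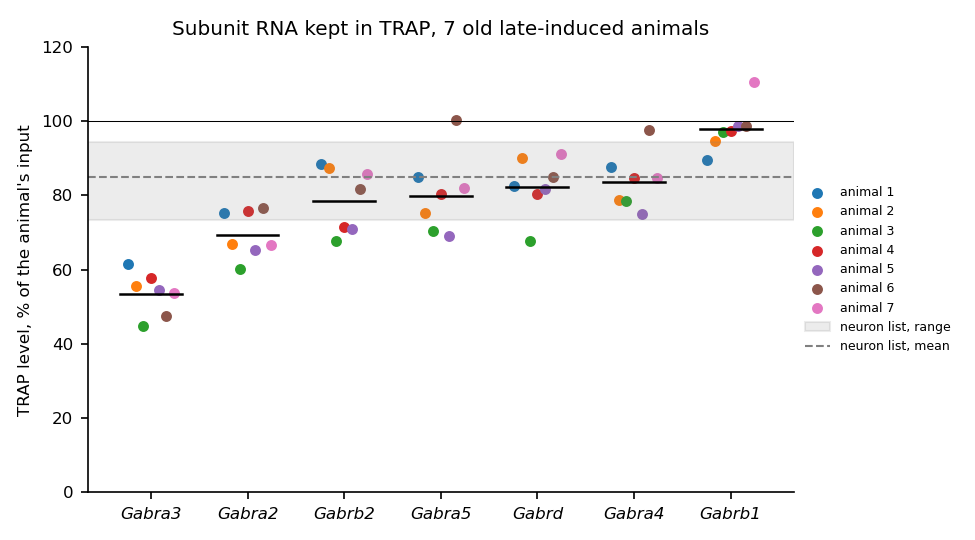
Level in TRAP as a percent of the input of the same animal (vertical axis) for each subunit gene, with 1 colour per animal and a black line at the geometric mean. The dashed line is the average over 11 neuron markers, and the grey band is the range of that average over the 7 animals. All 7 animals have Gabra3 between 44.9% and 61.6%, below the band that starts at 73.3%, and Gabrb1 lies at 98.0%.

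Comparing the genes with each other within animals, Gabra3 was below each of the other 6 in all 7 animals. Gabra2 was below Gabra4, Gabra5, Gabrb1 and Gabrd in all 7, and Gabrb1 was above Gabra2, Gabra3, Gabra4, Gabrb2 and Gabrd in all 7. Of the 21 pairs, 13 went the same way in all 7 animals. Gabra4, Gabra5, Gabrb2 and Gabrd had no such pair among themselves. Markers of other cells gave other shares in TRAP: 69.2% for 10 astrocyte markers, 40.1% for 8 oligodendrocyte markers, 78.8% for 7 CA1 markers, 118.3% for 9 dentate gyrus markers, 66.9% for 6 striatum markers and 95.1% for 8 interneuron markers. The share was 208.0% for 8 endothelial markers, 39.7% for 5 oligodendrocyte precursor markers, 78.3% for 5 CA3 markers and 100.1% for 10 thalamus markers. The part of these cells in the difference between Gabra3 and Gabrb1 was not tested.

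The other GABA-A subunit genes gave fewer calls than the 7 in early-induced ageing and TRAP, and more in old late-induced against young inputs. Of 12 genes 6 passed the filter on low counts, through whichever group was high, and 0 were called in early-induced ageing by edgeR, with 0 at an unadjusted p under 0.05. In old late-induced against young inputs 2 of the 6 fell, among them Gabrg3, a gamma subunit gene (-0.65 ± 0.24, adjusted p = 0.0367, edgeR). In TRAP 3 of the 6 fell, the largest change being that of Gabrg1 (-0.86 ± 0.12), also a gamma subunit gene. Of all genes tested, 25.5%, 34.5% and 58.4% were called in these comparisons, and the same shares stand beside the lists that follow.

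Of 14 genes that anchor or traffic GABA-A receptors, 2 rose and 1 fell in early-induced ageing. Shisa7, an auxiliary protein of the receptor, fell by 0.36 on the log2 scale (adjusted p = 0.000426), and Gabarapl1 and Gabarap, which carry receptors and autophagy cargo, rose by 0.16 and 0.15. In old late-induced against young inputs 2 rose and 4 fell, with Shisa7 (-0.53) and Slitrk3 (-0.39), a synaptic adhesion protein, lowest and Gabarap (0.24) highest. In TRAP 2 rose and 6 fell, led by Gabarap (0.67), Clptm1 (0.11), Lhfpl4 (-0.50), which clusters receptors at synapses, and Nlgn2 (-0.36), the adhesion protein of inhibitory synapses. The median of the 14 was -0.02, -0.02 and -0.13 in these comparisons.

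Of 8 genes of GABA synthesis, transport and breakdown, edgeR called 0 in early-induced ageing (2 at an unadjusted p under 0.05), and 3 fell in old late-induced against young inputs, the largest being Aldh5a1, a GABA-degrading enzyme (-0.16), and Gad2, a GABA-synthesising enzyme (-0.15). In TRAP 6 of the 8 fell, led by the GABA transporter genes Slc6a13 (-1.36) and Slc6a11 (-0.58). Of 5 GABA-B receptor genes 1 fell in early-induced ageing, the receptor subunit Gabbr2 (-0.31, adjusted p = 0.00768), and 4 fell in old late-induced against young inputs, with Gabbr2 (-0.49) and the auxiliary Kctd16 (-0.47) lowest. In TRAP 1 rose and 2 fell: Kctd12 rose by 1.70, and Kctd8 (-0.40) and Gabbr1 (-0.23) fell. Of 3 chloride transport genes, Clcn2, a chloride channel, fell in both age comparisons (-0.20 and -0.30), Slc12a2, a chloride importer, rose in the second (0.28), and all 3 fell in TRAP, with Slc12a5, the neuronal chloride exporter, at -0.45.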

How the data were processed

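PolyA RNA of hippocampus was sequenced, per the labels. The authors deposited 1 table of estimated counts for 36172 gene entries and 36 libraries, marked raw per the file headers. Of the nonzero values 77.4% are not whole numbers, which marks them as estimated. The submitters' processing notes name mm10 and DESeq2, with no role. The aligner and counter are not given in the sources used here.

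Groups, sex and animal were taken from the labels. The subunit genes and all gene lists were chosen with earlier results of these data known. The 148 list genes were all matched, 4 by identifier. Named genes were the 7 subunit genes, up to 2 called genes per direction and list with the largest change, and the 3 genes most like each subunit gene by deviations of log2 CPM from group means among genes averaging over 1 log2 CPM. A gene singled out by its values is marked so in the text. Results of some genes are not reported here.

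Estimated counts were rounded and tested with edgeR 4.0.16 in R 4.3.3 (filterByExpr with a minimum count of 10, TMM, glmQLFit and glmQLFTest), and called at a p under 0.05 after Benjamini-Hochberg adjustment. A fit of the 29 inputs with group and sex gave the contrasts of age, induction and sex, a fit of the early-induced inputs the interaction, and a fit of the 14 paired libraries with sex the TRAP contrast. SEs were derived from the F statistic. Levels are TMM CPM over all 36 libraries, and log2 CPM and ratios used a prior count of 2. Sign-flip tests were exact. Exon lengths came from GENCODE M21, cut to the deposited gene. The labels do not say that animals were independent beyond their numbers, so p-values measure the spread between these samples. The animal number paired TRAP with input: deviations of an animal's libraries correlated at 0.42 to 0.57 in all 7 pairs. No pair of libraries agreed within sampling noise (chi-square per degree of freedom at least 3.66). The tests were tested on simulated data. Alternatives used other scalings, filters, DESeq2 1.42.0, limma 3.58.1 voom, other covariates, females alone, only the groups compared, and each library left out. Figures were drawn with matplotlib 3.10.9.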

Additional observations from a re-analysis of the deposited data

Results flagged for a closer look

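Gabra2 in the input of old late-induced replicate 6 was at 52.0 CPM, far below the next value of its group, 76.6 CPM. The gap was 0.669 of the whole range of the 7 inputs, above Dixon's 95% critical value of 0.568. Of 28 sets of values examined this way, 1 had such a library, and chance gives about 1.4. The TRAP library of the same animal was the lowest of its group too, at 39.8 CPM. Without this replicate Gabra2 was called higher in old late-induced than in young inputs (0.37, adjusted p = 0.0255, edgeR).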

How the results depend on the processing

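In early-induced ageing 1 subunit gene was called with each library left out in turn, and 0 with females alone, where Gabrd was at 0.18. Uncalled values near 0 changed sign: Gabra4, Gabra5 and Gabrb1 were at 0.04, 0.07 and 0.12 with females alone and at 0.01 each with upper-quartile scaling, and Gabra5 was at 0.02 without the inputs high in thalamus markers. With libraries left out in turn they ran from -0.02 to 0.02, -0.03 to 0.03 and -0.05 to 0.02. Females alone gave 1198 calls over all genes.

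In old late-induced against young inputs the number of subunit genes called was 1 by the main analysis, 3 with upper-quartile scaling, 2 with DESeq2, 3 with only the groups compared, 3 without the inputs high in thalamus markers, and 1 to 2 with libraries left out in turn. Females alone gave 2787 calls over all genes.

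Between the old groups it was 0, 1 with females alone, 1 without the inputs high in thalamus markers, and 0 to 1 with libraries left out in turn. Gabra3 was at -0.01 with only the groups compared and at 0.00 without the thalamus-high inputs, where Gabrd was at 0.06. Left out in turn, they ran from -0.02 to 0.02 and -0.08 to 0.03. Over all genes the calls were 4, with 182 for females alone, 160 without the thalamus-high inputs, 55 with DESeq2, 11 with voom, 0 with only the groups compared and 0 to 162 with libraries left out.

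In TRAP 6 subunit genes were called, also with the replicate block on the animal (9551 genes called over all, against 8768), which changed no call among the subunit genes, and 5 to 6 with an animal left out. Gabrb1 was at 0.01 with females alone. Against the neuron list 4 subunit genes passed an exact p of 0.05, and 2 to 3 with an animal left out, when Gabra4 ran from -0.04 to 0.02. For sex, Gabrd was at 0.00 with DESeq2 and -0.04 in early-induced inputs, and over all genes 26 calls became 64 with DESeq2 and 12 in early-induced inputs. For the interaction 0 calls became 13 with DESeq2. The causes of these changes were not tested.

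Estimated counts per library ran from 179 for Gabrb1 to 4178 for Gabrb2, a counting error of 6.46% of the level for Gabrb1 in TRAP, which limits small differences of that gene most.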
